A study of Drosophila melanogaster with 12 samples.

Results

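Transcript levels were compared between eye imaginal discs homozygous for a sens mutant genotype and discs heterozygous for it, in wandering larvae of the last instar of Drosophila melanogaster. The arrays were taken by title, which gave 3 sens mutant and 3 sens control arrays out of the 12 in the series. The discs came from larvae reared at room temperature, and their antennal part had been cut away. The labels write the mutant genotype as w; sensDF2RES/sensDF2RES; sensE1/sensE1 and the control genotype as w; sensDF2RES/+; sensE1/+. By the usual order of a fly genotype the first sens element stands in the place of chromosome 2 and the other in that of chromosome 3, so the groups may differ along both chromosomes. For the X and the fourth chromosome the labels name only the white mutation w, which both groups carry. The labels do not say what DF2RES is, where the + chromosomes came from, or whether replicates came from separate crosses, so the p-values reflect how these arrays vary, and that variation may be technical. A further group of 3 arrays, w; ro-Gal4/UAS-Run[G163R], in which the rough driver expresses a Runt protein carrying the change G163R, is used below only as a further level of each transcript. It belongs to another experiment, differs from both sens groups in genotype, and enters no test.

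Senseless is a zinc-finger transcription factor of the R8 photoreceptor, the founder cell of each ommatidium in the fly retina. In its absence the R8 precursor is known to develop as an outer photoreceptor, marked by the homeobox gene rough (ro). R8 presents the ligand Bride of sevenless, encoded by boss, to the Sevenless receptor of a neighbouring cell, which then becomes R7. R7 and R8 also share the Spalt zinc-finger proteins, encoded by salm and salr, which set these inner photoreceptors apart from the outer ones and act on the targeting of their axons.

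Of the 18952 probe sets on the array 11214 were bright enough to be tested, and 8073 genes were represented among them, 4457 off chromosome 3 and 3577 on its arms 3L and 3R. Values are log2 levels with a dense floor at the low end; levels under 4 are called the floor here, and sizes of change that reach it are approximate. Correlations between arrays were 0.9938 to 0.9962 within the mutants, 0.9927 to 0.9964 within the controls and 0.9879 to 0.9929 between them. In the main test, limma on the 6 sens arrays with Benjamini-Hochberg adjustment, 1445 probe sets (12.9%) passed an adjusted p of 0.05, 937 higher and 508 lower in the mutants. The groups did not overlap for 4296 probe sets (38.3%), among them all 1445. The eye identity of the samples was clear from the retinal genes so (10.9 in mutants, 10.9 in controls) and eya (11.98 in mutants, 12.1 in controls), and 12 of the 13 eye disc markers tested averaged at least 8 in both groups.

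Off chromosome 3 most differences of at least 2-fold were downward, while most calls of any size were upward. Of the 4457 genes tested there, 106 (2.38%) passed the test with at least a 2-fold difference, 28 of them higher (0.628%) and 78 lower (1.75%) in sens mutant discs. Among probe sets the figures were 38 higher (0.772%) and 85 lower (1.73%), against 19 and 108 when the arrays were quantile normalized once more and 26 and 137 with each array's median subtracted. Leaving out 1 array at a time gave 12 to 60 higher and 54 to 95 lower probe sets, with 12 and 54 without sens mutant replicate 1. At any size of change, 530 of the 4457 genes (11.9%) were called, 354 higher (7.94%) and 176 lower (3.95%), and counts of list members below can be read against these shares. Of the 78 falling genes 31 stood in 1 or more of the 40 gene lists used here, and of the 28 rising genes 1 did. The lists were chosen with earlier results of these data known. The share of all tested genes that stood in a list was not counted, so these counts measure no enrichment. In whole discs, fewer cells of a type and less RNA in each cell cannot be told apart.

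**Figure D1:**
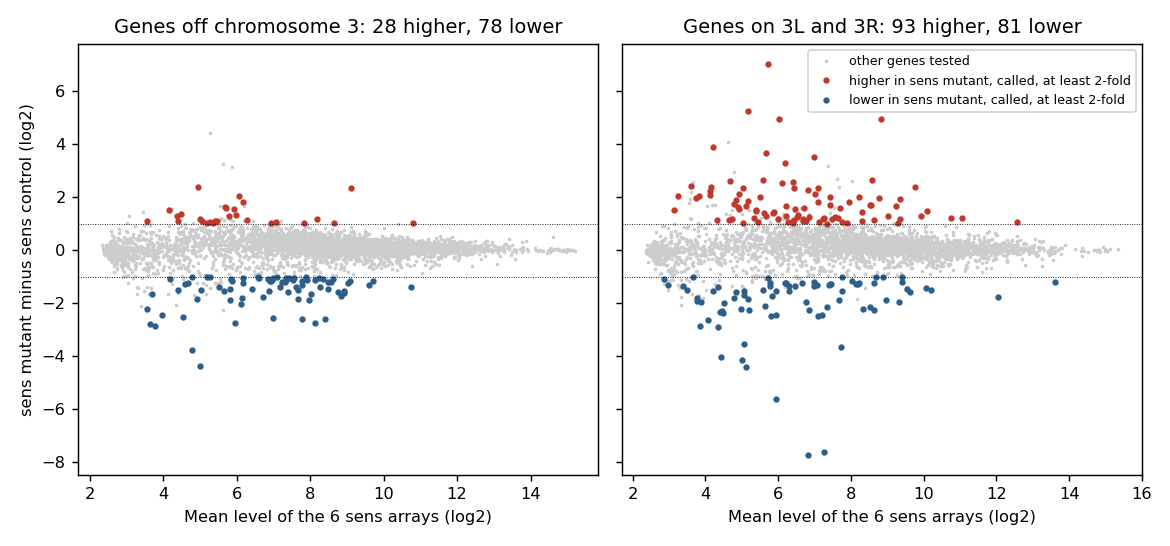
Difference between sens mutant and sens control discs (log2, y axis) against the mean level of the 6 sens arrays (log2, x axis), for genes off chromosome 3 (left) and on 3L and 3R (right). Coloured points passed limma's test with at least a 2-fold difference; off chromosome 3 they number 28 higher and 78 lower, on it 93 higher and 81 lower, with the longest tails on chromosome 3.

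Both Spalt genes fell in the mutants. salm stood at 8.16, 8.03 and 8.23 in the mutants, against 9.49, 9.55 and 10.01 in the controls and 9.71, 10.1 and 9.84 in Runt G163R discs. It fell by 1.54 (SE 0.153, limma adjusted p = 0.00476). Its neighbour on 2L and paralogue, salr, stood at 6.61, 6.12 and 6.66 in the mutants, against 7.79, 7.72 and 8.08 in the controls and 7.65, 7.92 and 8.04 in Runt G163R discs, and fell by 1.40 (SE 0.197, adjusted p = 0.0114). For both Spalt genes the mutants lay below every control and Runt G163R array, and the Runt G163R discs were at the control level.

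The receptor gene sev, on the X, gave 6.96, 6.81 and 7.32 in the mutants, against 8.12, 8.01 and 8.15 in the controls and 8.04, 8.67 and 8.77 in Runt G163R discs. It fell by 1.07 (SE 0.156, adjusted p = 0.0127), and the mutants again stood apart from both other groups. In all, 5 of the 12 R7 and Spalt genes tested off chromosome 3 fell and none rose, with 2 to 5 falls over 16 alternative settings. The other falls were those of phyl, the adaptor that brings Tramtrack to degradation during R7 specification, by 0.50, and of NetB, a Netrin guidance cue, by 0.65. For these the Runt G163R mean was nearer the mutants, with phyl at 9.23 in mutants, 9.73 in controls and 9.26 in Runt G163R discs, and NetB at 9.45 in mutants, 10.1 in controls and 8.20 in Runt G163R discs. The remaining members, among them Sos, drk, csw and Dsor1 of the Sevenless signalling chain, differed by -0.08 to 0.45 and did not pass, so the list's median difference was -0.063, against 0.079 for all 4921 probe sets off chromosome 3.

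Among R8 and proneural genes off chromosome 3, 4 of 7 fell and none rose, with a median of -0.50 and 1 to 4 falls over the 16 settings. ase, the proneural gene asense of neural precursors, stood at 3.91, 4.01 and 3.91 in the mutants, against 5.26, 5.26 and 5.10 in the controls, and fell by 1.27 (SE 0.119, adjusted p = 0.00434) to values near the floor. nvy, which encodes a corepressor of the ETO family, stood at 7.88, 7.16 and 8.25 in the mutants, against 9.21, 9.25 and 9.20 in the controls, and fell by 1.45 (SE 0.271, adjusted p = 0.0252). The LIM-homeobox gene Lim3 fell by 1.55 (SE 0.356, adjusted p = 0.0431), and phyl belongs to this list too. The calls of nvy and Lim3 held under 11 and 9 of 16 settings, that of ase under all 16. For ase, nvy and Lim3 the Runt G163R means, 5.01, 8.82 and 7.11, were nearer the control than the mutant means. The proneural genes sc and ac and their partner da, at differences of 0.33, 0.24 and -0.13, did not pass.

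Genes of the outer photoreceptors and cone cells showed no common direction. Off chromosome 3 only onecut, a cut-family homeobox gene of photoreceptors and other neurons, passed among 9 tested. It stood at 6.70, 6.13 and 7.05 in the mutants, against 7.93, 7.80 and 7.79 in the controls, and fell by 1.22 (SE 0.244, adjusted p = 0.0302). lz, B-H1 and B-H2, transcription factor genes of R1, R6, R7 and cone cell precursors, had differences of 0.45, 0.45 and 0.55 that did not pass, and the pan-neuronal gene elav had -0.27 (adjusted p = 0.463). A further zinc-finger gene expressed in photoreceptors, peb, stood at 8.98, 9.14 and 9.24 in the mutants, against 10.02, 10.29 and 10.52 in the controls, and fell by 1.15 (SE 0.141, adjusted p = 0.00747).

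Part of the neuronal genes fell too. Of 24 genes of neuronal differentiation and the synapse tested off chromosome 3, 9 fell and none rose, with a median of -0.42 and 3 to 10 falls over the 16 settings. futsch, the microtubule-associated antigen that marks photoreceptor axons, stood at 8.11, 8.18 and 7.93 in the mutants, against 9.04, 9.31 and 9.13 in the controls and 9.12, 9.26 and 9.27 in Runt G163R discs, and fell by 1.08 (SE 0.107, adjusted p = 0.00476). A second futsch probe set was not called, and the mean of both differed by -0.570. nrv3, a sodium pump subunit of neurons, fell by 1.15 (SE 0.152, adjusted p = 0.00926), also with Runt G163R discs at the control level. For both genes the mutants were the group that stood apart.

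Other neuronal falls had a different reference level. cac, the presynaptic calcium channel gene, stood at 7.30, 6.59 and 7.18 in the mutants, against 8.58, 8.94 and 9.20 in the controls and 6.58, 7.33 and 7.18 in Runt G163R discs, a difference of -1.88 (SE 0.243, adjusted p = 0.00889). fne, an RNA-binding protein gene of the ELAV family, stood at 5.30, 3.88 and 4.53 in the mutants, against 7.74, 7.90 and 6.32 in the controls and 3.49, 4.31 and 4.35 in Runt G163R discs, and fell by 2.75 (SE 0.549, adjusted p = 0.0297, called under 9 of 16 settings). Appl, the amyloid precursor gene of neurons, fell by 0.87 (SE 0.0955, adjusted p = 0.00611). For these genes the control arrays were high, and the mutant and Runt G163R arrays lay at like levels. Over the 9 falling members the Runt G163R mean was nearer the mutants for 6 and nearer the controls for 3.

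Of 36 axon guidance and photoreceptor targeting genes off chromosome 3, 8 fell and none rose, with 2 to 12 falls over the 16 settings. CadN, the N-cadherin through which photoreceptor axons choose their targets, stood at 8.59, 8.73 and 8.83 in the mutants, against 9.48, 9.66 and 9.70 in the controls, and fell by 0.89 (SE 0.094, adjusted p = 0.00542). stan, the atypical cadherin Flamingo that acts in the same choice, stood at 11.2, 11.1 and 11.2 in the mutants, against 11.6, 11.7 and 11.8 in the controls, and fell by 0.53 (SE 0.0787, adjusted p = 0.0129). Actbeta, an Activin ligand of photoreceptors, fell by 1.13 (SE 0.186, adjusted p = 0.0179). The mutants and controls did not overlap for these genes. The Runt G163R arrays of CadN, at 8.59, 9.21 and 9.39, lay below every control, and their mean for stan, 11.1, was at the mutant level. For 6 of the 8 falling genes of the list the Runt G163R mean was nearer the mutants.

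The Slit receptor gene robo1 had the largest fall of this list, 1.80 (SE 0.414, adjusted p = 0.0433), with 5.71, 4.49 and 5.53 in the mutants, 6.54, 7.03 and 7.54 in the controls and 9.10, 9.38 and 9.36 in Runt G163R discs. All 3 groups were apart for robo1, and its call held under only 7 of 16 settings. kirre and hbs, immunoglobulin adhesion genes that act in the sorting of retinal cells, fell by 0.65 and 0.57, and Alk by 0.18 within the floor. The median difference over the 36 members was -0.039. In the dpr, DIP, beat, side and kek families of cell-surface proteins 5 of 25 fell and none rose, with kek2, dpr7, beat-IIIc, kek5 and DIP-theta at -0.61, -0.87, -0.70, -0.47 and -0.31. kek2 and DIP-theta lay in the floor in both groups, and a second probe set of kek5 was not called (mean -0.259).

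**Figure D2:**
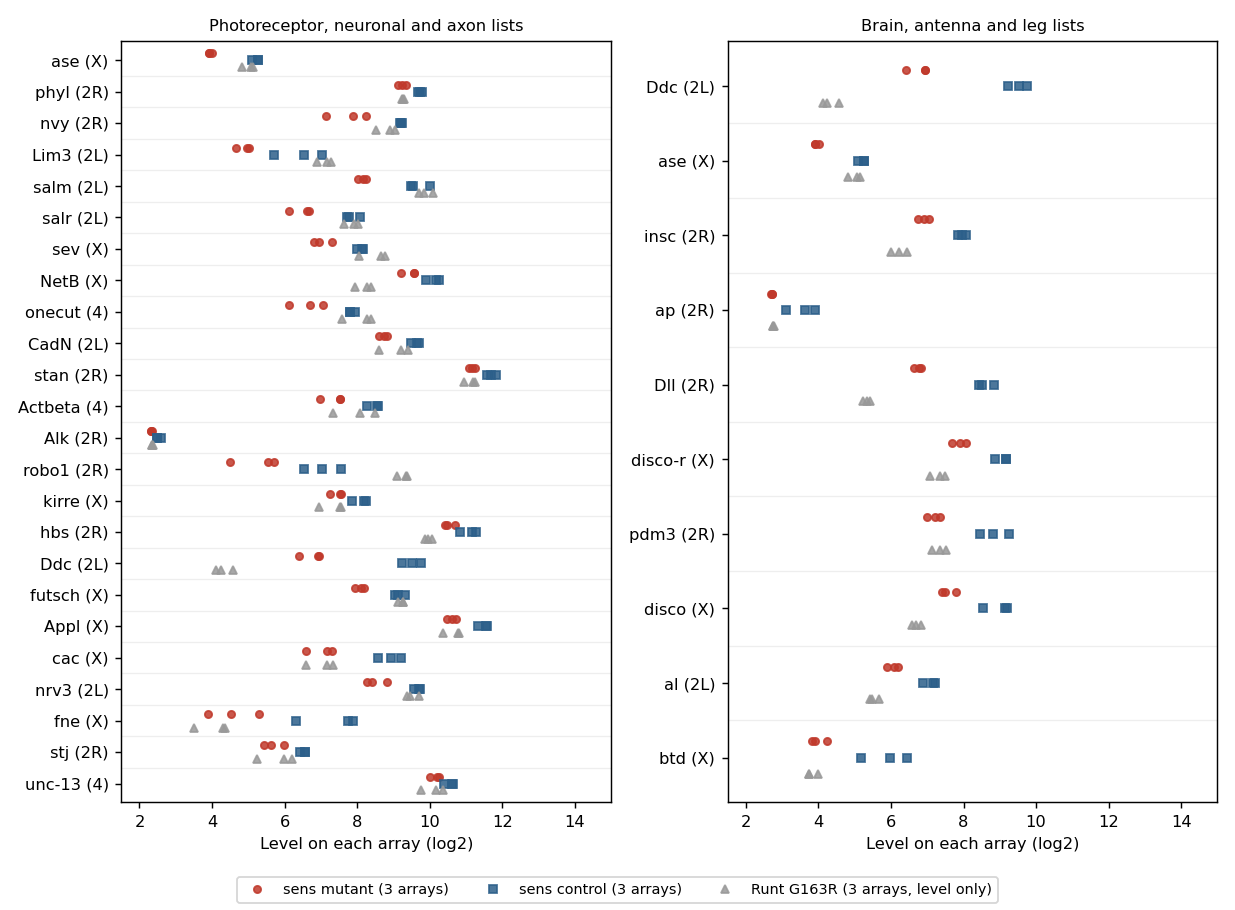
Level on each array (log2) of the genes off chromosome 3 that passed the test in the photoreceptor, neuronal and axon lists (left) and in the brain, antenna and leg marker lists (right), with the arm in brackets; circles are sens mutant, squares sens control and triangles Runt G163R arrays. A gene in several lists is drawn once per panel, and Ddc and ase are in both. In every row the mutants lie below the controls; the triangles lie with the controls for salm, salr and futsch and with or beyond the mutants for Ddc, cac, Dll and disco.

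The largest falls off chromosome 3 included several genes outside these lists. CG15449, on the X, stood at 2.84, 2.79 and 2.75 in the mutants, against 6.93, 7.19 and 7.43 in the controls and 7.20, 7.24 and 7.66 in Runt G163R discs, a difference of -4.39 to the floor (SE 0.175, adjusted p = 0.000229). Kmn1, a kinetochore protein gene also on the X, stood at 6.42, 6.38 and 6.58 in the mutants, against 8.97, 9.21 and 9.05 in the controls and 8.45, 8.55 and 8.36 in Runt G163R discs, a difference of -2.62 (SE 0.111, adjusted p = 0.000291). For both genes the mutants lay below every control and Runt G163R array, and for Kmn1 the Runt G163R arrays also lay below every control array.

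IA-2, a receptor phosphatase-like gene of secretory vesicles on 2L, stood at 2.92, 2.90 and 2.86 in the mutants, against 6.14, 7.55 and 6.31 in the controls and 2.95, 2.93 and 2.88 in Runt G163R discs, a difference of -3.77 (SE 0.383, adjusted p = 0.00489). Here the controls alone were above the floor. The zinc transporter gene Zip102B, on the fourth chromosome, fell by 2.61 (SE 0.475, adjusted p = 0.0232), with mutants spread over 6.87, 8.18 and 6.28, against 9.73, 9.92 and 9.51 in the controls, and its call held under 11 of 16 settings. Falls were also seen in atilla, a surface protein gene known from lamellocytes (-2.56), CG6426 (-2.04), the syntrophin gene Syn2 (-1.91), Muc12Ea (-1.76), CG17124 (-1.74) and the POU-homeobox gene pdm3 (-1.65). Of the 15 largest falls, 9 were called under every alternative setting. Metabolic and signalling enzymes among the falls were FASN1, a fatty acid synthase gene, which fell by 1.38 (SE 0.0787, adjusted p = 0.000987), and inaE, a diacylglycerol lipase gene of phototransduction, which fell by 1.30 (adjusted p = 0.00207) in its brightest probe set, while none of its 4 other probe sets was called and the mean of all was -0.248. For pdm3 the other probe set was not called, and the mean was -1.158.

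**Figure D3:**
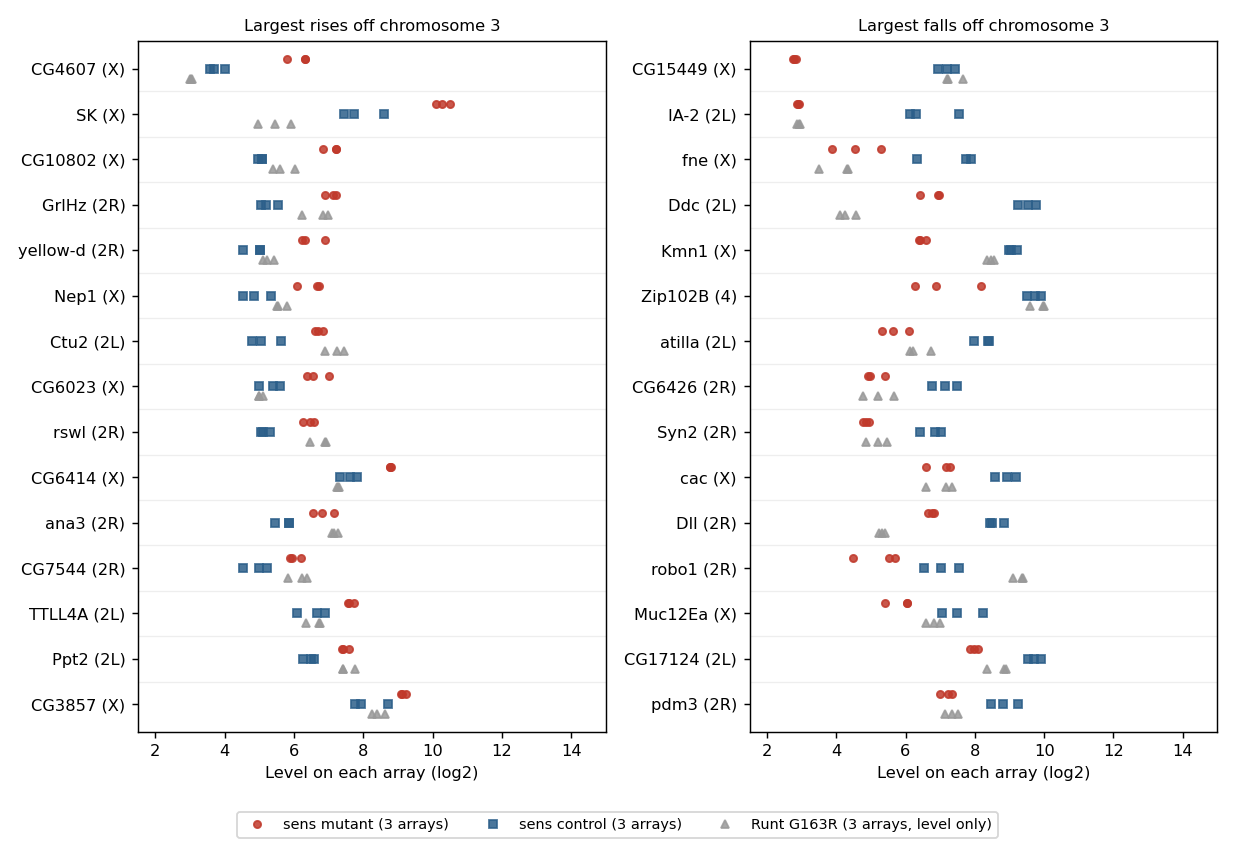
Level on each array (log2) of the 15 genes with the largest rise (left) and the 15 with the largest fall (right) off chromosome 3, among genes called at least 2-fold whose higher group averaged at least 6; circles are sens mutant, squares sens control and triangles Runt G163R arrays, with the arm in brackets. Mutants and controls do not overlap in any row, which the choice of genes required, and the triangles lie with either group, between the groups or beyond them.

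The Runt G163R level divides these genes. On a scale where the control mean is 0 and the mutant mean is 1, the Runt G163R mean lay at or under 0.25, at the control level or beyond it, for 22 of the 78 falling genes, at or over 0.75, at the mutant level or beyond it, for 38, and between these for 18. Some lay well beyond, such as robo1 above the controls and Ddc below the mutants. Besides salm, salr, sev, ase, futsch, nrv3, Lim3, robo1, onecut, Zip102B, CG15449 and Kmn1, the 22 held the photoreceptor carcinine transporter gene CarT (-1.02) and, named here after their values were seen, the aquaporin gene Prip (-1.59), the neuronal transcription factor gene ewg (-1.13), the dopamine transporter gene DAT (-1.51) and the sex peptide receptor gene SPR (-2.88, to the floor). Among the 38 were IA-2, Ddc, fne, cac, Syn2, pdm3 and CG6426, along with insc, Dll, disco, disco-r and al of the markers described next. For the 28 rising genes the counts were 10 at the control side, 12 at the mutant side and 6 between.

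Part of the markers of brain and of antenna and leg discs fell too, mostly off chromosome 3. Of 30 brain and neuroblast markers 26 had a probe set, 20 were tested and 11 of these lay off chromosome 3, where 4 fell and none rose, with a median of -0.83 and 2 to 9 falls over the 16 settings. Ddc, the dopa decarboxylase gene, stood at 6.933, 6.952 and 6.404 in the mutants, against 9.76, 9.52 and 9.23 in the controls and 4.25, 4.57 and 4.12 in Runt G163R discs, a difference of -2.74 (SE 0.206, adjusted p = 0.00219). insc, the neuroblast polarity gene inscuteable, fell by 1.06, and ase (-1.27) and, within the floor, ap (-0.83) fell with it. Of 9 tested members on chromosome 3, 2 fell and 1 rose, with a median of -0.073. On 3R the neuroblast gene mira (-1.31) and pros (-1.27) fell, and the glial gene repo, also listed here, rose by 0.39. The mean of the tested list was 6.63 to 6.79 on the mutant arrays, 7.12 to 7.38 on the control arrays and 6.30 to 6.44 on the Runt G163R arrays. Not all markers were detected, since cas, pdm2, Tbh, bsh, l(1)sc and Rx failed the filter, and 5 tested members, such as ple and erm, had both means in the floor.

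Of 28 antenna and leg disc markers 25 had a probe set, 24 were tested and 13 of these lay off chromosome 3, where 7 fell and none rose, with a median of -1.04 and 3 to 11 falls over the 16 settings. The homeobox gene Dll stood at 6.78, 6.64 and 6.83 in the mutants and fell by 1.84 (SE 0.14, adjusted p = 0.00225). The zinc-finger genes disco and disco-r, neighbours on the X, fell (-1.40 and -1.20), as did pdm3 (-1.65), the Sp-family gene btd (-1.87, to the floor), the homeobox gene al (-1.02) and ap (-0.83). For all 7 the Runt G163R mean was nearer the mutant mean. The mean of the tested list was 5.92 to 6.13 on the mutant arrays, 6.34 to 7.07 on the control arrays and 5.63 to 5.87 on the Runt G163R arrays, so the list mean was higher on every control array than on any mutant array. Of 11 tested members on chromosome 3, 1 fell and none rose, with a median of -0.048. On 3R lbl fell by 2.12, lbe failed the filter, and the antennal genes dan, danr and ss, at 0.31, 0.07 and -0.57, did not pass. The part of brain and antennal tissue in the neuronal, axon and transcription factor falls was not tested.

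Rises of at least 2-fold off chromosome 3 were fewer than falls, and 1 of the 28 genes stood in a list. SK, a calcium-activated potassium channel gene on the X, stood at 10.1, 10.3 and 10.5 in the mutants, against 7.45, 7.72 and 8.61 in the controls and 4.96, 5.90 and 5.44 in Runt G163R discs, a rise of 2.36 (SE 0.306, adjusted p = 0.00894). All 3 groups were apart for SK, with a second probe set also higher. CG4607 stood at 6.31, 5.79 and 6.32 in the mutants, against 3.56, 3.70 and 3.99 in the controls, a rise of 2.39 (SE 0.219, adjusted p = 0.004), and CG10802 at 7.20, 6.85 and 7.20 in the mutants, against 5.08, 4.96 and 5.08 in the controls, a rise of 2.04 (SE 0.17, adjusted p = 0.00315). These were the largest rises, and together with CG6414 (1.19) they were the 4 of 15 that were called under every alternative setting.

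GrlHz rose by 1.82, yellow-d, of the Yellow family, by 1.63, the neprilysin peptidase gene Nep1 by 1.59 and Ctu2, which acts in the thiolation of transfer RNA, by 1.56. CG6023 rose by 1.31, rswl by 1.27, the centriole gene ana3 by 1.12, CG7544 by 1.10, the tubulin ligase-like gene TTLL4A by 1.08, the thioesterase gene Ppt2 by 1.03 and CG3857 by 1.02. The call of CG3857 held under 5 of 16 settings, and a second probe set of it was not called (mean 0.762). For Ctu2, rswl, ana3, CG7544 and Ppt2 the Runt G163R discs were at the mutant level, so the controls were the low group. The paralogue of sens on 2L, sens-2, named here after its value was seen, stood at 5.36, 5.66 and 5.72 in the mutants, against 4.81, 4.51 and 3.91 in the controls, and rose by 1.17 (SE 0.268, adjusted p = 0.043).

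Of 9 retinal determination genes off chromosome 3, 4 rose and none fell, with a list median of 0.065, against 0.079 for all probe sets there. There were 3 rises and no fall with the further quantile normalization, 2 rises and 1 fall with median subtraction, and 1 to 4 rises over the 16 settings. Optix, a Six-family homeobox gene of the eye field, stood at 9.54, 9.57 and 9.56 in the mutants, against 8.48, 8.68 and 8.84 in the controls and 9.76, 10.02 and 9.90 in Runt G163R discs, a rise of 0.89 (SE 0.1, adjusted p = 0.00642) called under all 16 settings. The Pax6 genes ey and toy rose by 0.50 and 0.36 and dac by 0.32, and the calls of toy and dac held under 7 and 6 of 16 settings. so and eya did not pass (-0.07 and -0.14), and the Runt G163R mean was nearer the mutant mean for 3 of the 4 that rose.

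Small rises ran through genes of growth and metabolism, and their calls depended on the scaling. Of 33 mitochondrial ribosomal protein genes off chromosome 3, 13 rose and none fell, with a median of 0.29; the counts of rises and falls were 4 and 0 with the further quantile normalization and 0 and 0 with median subtraction. Of 34 cell cycle and replication genes 5 rose (RnrL, Cdk4, Psf2, borr and pim, by 0.33 to 0.59), with 4 rises and 2 falls after quantile normalization and 1 and 2 after median subtraction. Of 18 genes of glycolysis and central carbon metabolism 6 rose, led by mAcon1, mitochondrial aconitase, at 0.33 and Glyp, glycogen phosphorylase, at 0.52, against 3 rises and 1 rise under those scalings. Of 34 respiratory chain genes 6 rose, against 2 and 0. Over all probe sets the median difference was -0.15 with median subtraction and 0.036 as deposited. Which changes of this size were called thus depended on the scaling. RnrL, Cdk4, Psf2, borr, pim, mAcon1 and Glyp stayed higher in the mutants under every setting. They were named because they were called higher in these same arrays, so their sign is no further support. Their calls held under 11, 11, 9, 8, 7, 14 and 15 of 16 settings. With median subtraction the list medians were 0.113 for mitochondrial ribosomal proteins and 0.01 for the cell cycle. They were -0.022 for central carbon metabolism and -0.024 for the respiratory chain. Counts of falls were 4 in the R8 list and 5 in the R7 list under both scalings and 10 in the neuronal list under both, while median subtraction gave 12 falls in the axon list, 9 in the brain list and 11 in the antenna and leg list, against 8, 4 and 7 as deposited. None of 22 cytosolic ribosomal protein genes passed off chromosome 3, where they had a median of 0.0032.

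Calls among detoxification and pigment genes off chromosome 3 depended on the scaling too. Among glutathione S-transferase and cytochrome P450 genes 5 of 34 rose and none fell, with GstT1 at 0.51, GstE13 at 0.40, GstE12 at 0.38, Cyp6v1 at 0.98 and Cyp4p2 at 0.37. The counts were 4 rises and 2 falls with the further quantile normalization and 2 and 2 with median subtraction. GstT1 was called under all 16 settings, Cyp6v1 and Cyp4p2 under 8. Of 14 genes of eye pigment and pteridine synthesis 3 rose, Rab32, a trafficking gene of pigment granules, by 0.46, pr, of pteridine synthesis, by 0.46 and mal, the molybdenum cofactor sulfurase gene, by 0.56. For the pigment list the counts were 2 rises and no fall with the further quantile normalization and no rise and 1 fall with median subtraction. All of these rises were under 2-fold.

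**Figure D4:**
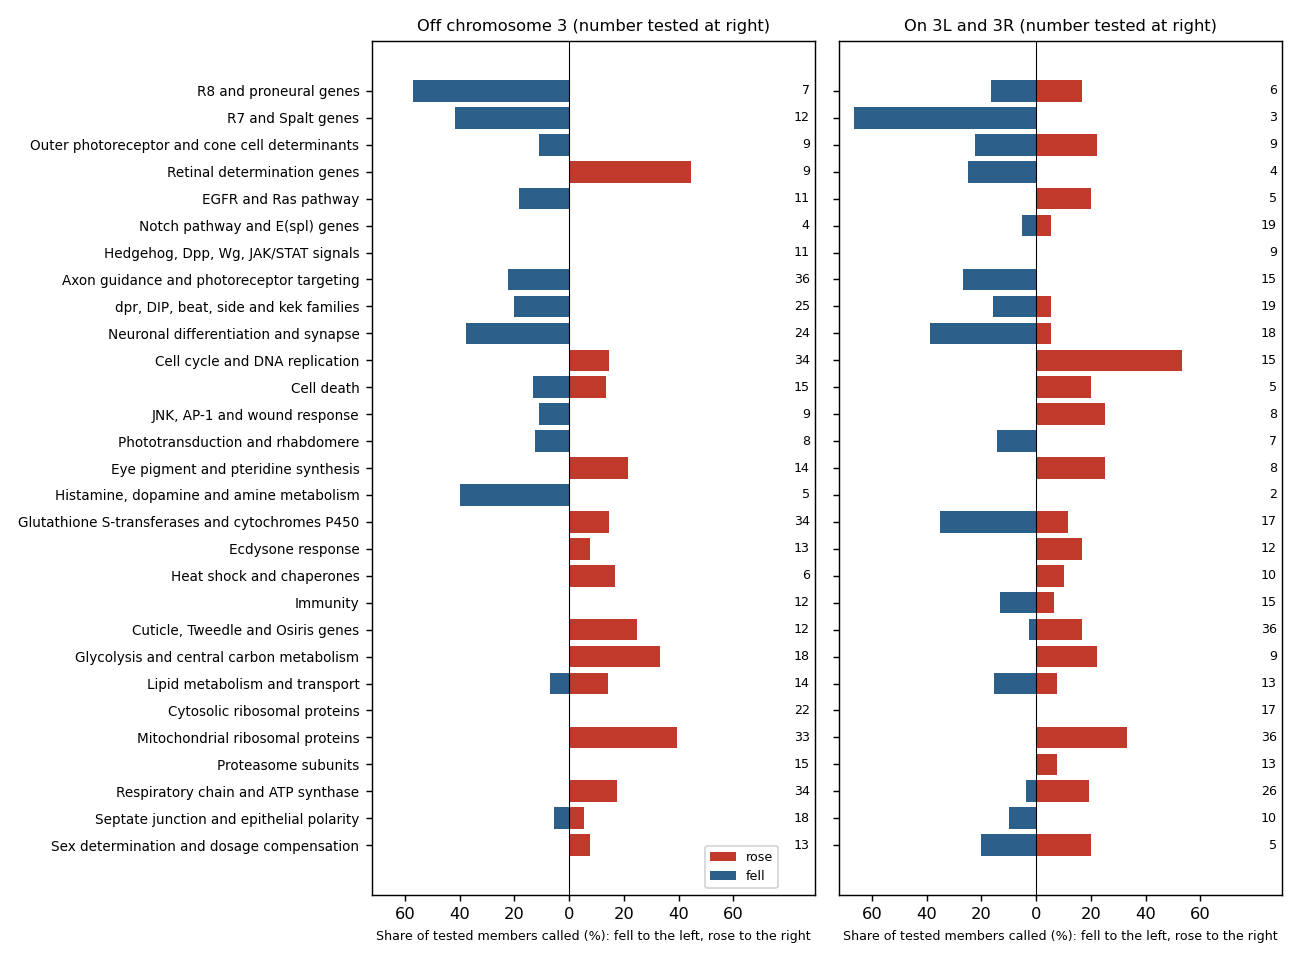
Share of the tested members of each functional gene list that passed limma's test, in percent of the number tested (printed at the right), with falls to the left and rises to the right, for genes off chromosome 3 (left panel) and on 3L and 3R (right panel). Off chromosome 3 falls are seen in 4 of 7 R8 and proneural, 5 of 12 R7 and Spalt and 9 of 24 neuronal genes, and rises in 13 of 33 mitochondrial ribosomal protein genes.

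Few furrow signalling genes off chromosome 3 were called. The lists are short, and 11.9% of all genes tested there were called, so the counts do not set these pathways apart. None of 11 Hedgehog, Dpp, Wingless and JAK/STAT genes and none of 4 Notch pathway genes passed limma's test there. With array weights 2 of the 11 rose, and with those weights 1 of the 4 rose and 1 fell. Of the 4 Notch genes 1 also rose in a fit of all 12 arrays. With median subtraction and with the further quantile normalization 1 of them fell. Another 19 Notch genes were tested on chromosome 3, where 1 rose and 1 fell. Their median was 0.26, with 0 to 8 rises over 15 settings. In the EGFR and Ras pathway 2 of 11 fell, the ligand gene spi by 0.28 and the ETS-inhibitor gene edl by 0.46, while the receptor gene Egfr differed by 0.26 and did not pass.

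Markers of other tissues were called in part. Among haemocyte markers 2 of 16 off chromosome 3 fell, atilla and peb, and 1, Ance, rose by 0.48, while the defining genes Hml, He and eater lay in the floor in both sens groups (Hml at 2.92 in mutants and 2.85 in controls). The mean of the haemocyte list was 7.17 to 7.39 on the mutant arrays, 7.51 to 8.04 on the control arrays and 9.07 to 9.24 on the Runt G163R arrays, and its part in the falls was not tested. Of 10 fat body markers off chromosome 3 only CG6426 passed, and none of 8 muscle markers and no trachea marker of 3 there did. Eig71Ea, an ecdysone-induced gene of the Eig71E cluster in the salivary gland list, was split within each group. It stood at 2.46, 12.9 and 11.5 in the mutants and 10.7, 5.67 and 2.41 in the controls. Of the same cluster, Eig71Ee, Eig71Ef and Eig71Eg failed the filter. Their means were 5.046, 7.547 and 8.197 in the mutants and, in the floor, 2.279, 2.242 and 2.225 in the controls. Failing the filter means that fewer than 3 of the 6 arrays were above their 40th percentile. The mutant means therefore do not hold for all 3 mutant arrays. In glia, wrapper (1.29) and moody (0.41) rose while CG10433 (-1.07), pyr (-1.03) and Eaat2 (-1.26) fell, so 5 of the 15 tested off chromosome 3 were called.

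Among the large arms, 2-fold calls were densest on 3L and 3R. By arm the share of probe sets called at least 2-fold was 2.96% on the X, 2.06% on 2L, 2.32% on 2R, 6.0% on 3L and 4.43% on 3R, and 6.58% on the small chromosome 4 (5 of 76 probe sets). In bins of about 100 neighbouring tested genes the share was 0% to 7.84% on 2L, with a median of 1.47%, and 0% to 5.94% on 2R. On 3L the median was 6.0%, with no bin under 2.0%, and on 3R the range was 0% to 11.1%. The bin that holds sens, from CG42709 to CG17839, had 6.0%, the median of its arm, and the highest bins ran from COX5A to 2mit on 3R and from PDCD-5 to blot on 3L. Of 9 pairs of genes off chromosome 3 that were next to each other among those tested and both called at least 2-fold, 6 moved the same way. These included salr with salm, disco-r with disco, and H15 with mid, T-box genes on 2L that fell by 2.54 and 1.51 and were named after their values were seen. The other 3 pairs moved opposite ways, namely CanB with SK, CG15203 with sev and CG15449 with Mgstl. On chromosome 3, 7 of 12 such pairs moved the same way. Most 2-fold calls off chromosome 3 were falls, and how many pairs would agree from that alone was not computed.

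**Figure D5:**
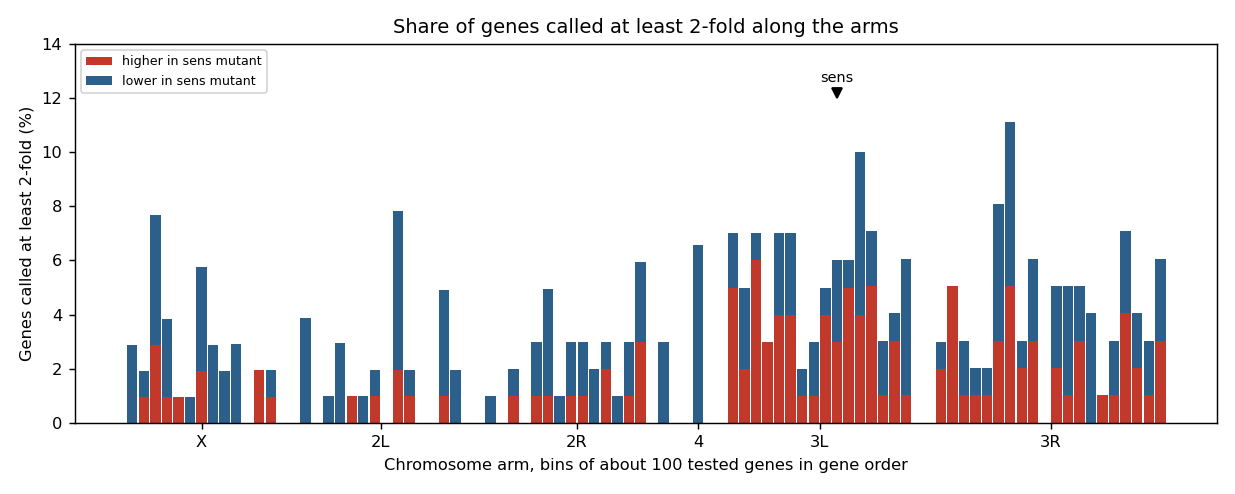
Percent of genes called at least 2-fold (y axis) in bins of about 100 tested genes in gene order along each arm (x axis); red stacks genes higher and blue genes lower in sens mutant discs, and the triangle marks the bin holding sens. Bins on 3L have a median of 6.0% and on 2L of 1.47%, and bins of over 7% occur on X and 2L as well as on 3L and 3R.

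On chromosome 3, 174 of the 3577 genes tested (4.86%) were called at least 2-fold, 93 higher (2.6%) and 81 lower (2.26%), and 639 (17.9%) were called at any size, 11.6% higher and 6.29% lower. Among probe sets 112 (2.8%) were at least 2-fold higher and 93 (2.32%) lower. Since the genotypes may differ along this chromosome, its genes cannot be told apart as changed through sens or through linked alleles. sens itself, on 3L, was higher in the arrays labelled mutant, at 10.8, 10.4 and 10.6, against 8.96, 9.30 and 9.61 in the controls, and Runt G163R discs had 8.57, 8.78 and 8.74. It rose by 1.29 (SE 0.186, adjusted p = 0.0122). Whether the mutant elements remove the transcript is not in the labels, and the sens level therefore checks no genotype. boss, on 3R, stood at 2.27, 2.39 and 2.59 in the mutants, against 6.48, 6.51 and 6.38 in the controls and 6.11, 6.51 and 6.25 in Runt G163R discs, a difference of -4.04 to the floor (SE 0.13, adjusted p = 0.000126).

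The other R8, R7 and outer photoreceptor genes on chromosome 3 moved by smaller amounts. ro stood at 8.26, 8.01 and 8.40 in the mutants, against 7.36, 7.53 and 7.78 in the controls and 8.39, 8.53 and 8.45 in Runt G163R discs, and rose by 0.67 (SE 0.157, adjusted p = 0.0454), a call that held under 6 of 15 settings. The Runt G163R discs carry the rough driver, and their level is no wild-type level for ro. pros, a homeobox gene of R7 and cone cells, stood at 6.68, 6.63 and 7.16 in the mutants, against 7.98, 8.33 and 7.98 in the controls, and fell by 1.27 (SE 0.191, adjusted p = 0.0137). mirr, an Iroquois homeobox gene of the dorsal eye, rose by 1.72, with another probe set not called (mean 0.846), the tyrosine kinase gene Abl fell by 1.36, and the photoreceptor gene gl fell by 0.47 (adjusted p = 0.0461), a call that held under 7 of 15 settings. The proneural gene ato did not pass (0.11, SE 0.317, adjusted p = 0.831), and the difference changed sign under 4 settings.

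Falls were also found among neuronal and axon genes on chromosome 3. Of 18 neuronal genes 7 fell and 1 rose, and of 15 axon guidance genes 4 fell and none rose. gogo, a receptor that photoreceptor axons use for targeting, stood at 9.36, 9.30 and 9.35 in the mutants, against 10.7, 10.7 and 10.9 in the controls and 10.3, 10.5 and 10.7 in Runt G163R discs, a difference of -1.44 (SE 0.0768, adjusted p = 0.000753). Ank2, a neuronal ankyrin gene, stood at 9.77, 9.23 and 9.34 in the mutants, against 10.7, 11.1 and 11.1 in the controls and 10.8, 11.4 and 11.3 in Runt G163R discs, and fell by 1.53 (SE 0.177, adjusted p = 0.0068). For gogo and Ank2 the mutants lay below every control and Runt G163R array. A second gogo probe set was not called, and the mean over probe sets was -0.751 for gogo and -0.973 for Ank2. nrm (-1.54), the immunoglobulin gene klg (-1.96) and dpr5 (-1.39) also fell, though 2 other probe sets of nrm were not called (mean -0.664), while dpr16 rose by 2.22.

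Cell cycle genes were among the rises on chromosome 3. Of 15 tested 8 rose and none fell, with a median of 0.63, and 6 rose with the further quantile normalization and 4 with median subtraction. They were led by mad2, the spindle checkpoint gene, at 9.68, 9.71 and 9.60 in the mutants, against 8.70, 8.64 and 8.66 in the controls, a rise of 0.99 (SE 0.0577, adjusted p = 0.00103). The primase gene Prim1 rose by 1.23, Cdk2 by 0.77, and Mcm2 and Mcm5 of the replicative helicase by 0.42 and 0.39. For all 8 the Runt G163R mean was nearer the mutant mean, with mad2 at 9.98, 9.59 and 9.49 there, so the controls were the lower group. Among mitochondrial ribosomal protein genes 12 of 36 rose and none fell, against 6 and 1 with the further quantile normalization and 2 and 1 with median subtraction.

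The most extreme values of the whole comparison lay on chromosome 3. CG32055 stood at 9.11, 9.29 and 9.32 in the mutants and in the floor in all controls and Runt G163R discs, a rise of 7.05 (SE 0.15, adjusted p = 2.26e-05). The xanthine dehydrogenase gene ry stood at 6.16, 6.13 and 6.19 in the mutants, against 2.27, 2.25 and 2.25 in the controls and 2.26, 2.56 and 2.27 in Runt G163R discs. For these genes only the mutants departed, and ry with Dhpr, dihydropteridine reductase, which rose by 0.75, were the 2 of 8 pigment genes that rose on this chromosome. In contrast Hsc70-2, a heat shock cognate gene, stood at 7.83, 7.99 and 7.51 in the mutants, against 2.62, 2.50 and 2.51 in the controls and 7.43, 7.73 and 7.66 in Runt G163R discs, and the kinase gene Eip63E and CG11357, which rose by 4.97 and 4.94, likewise had the controls apart. Of the 93 rising genes on chromosome 3 the Runt G163R mean lay at the mutant side for 46 and at the control side for 24.

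Among the falls, Mob2, a kinase activator gene, stood at 3.08, 3.02 and 2.76 in the mutants, against 10.6, 11.0 and 10.6 in the controls. The difference was -7.75, to the floor, but a second probe set of Mob2 was not called, and the mean of both was -3.609. The glutathione S-transferase gene GstD3 stood at 3.52, 3.27 and 3.58 in the mutants, against 11.0, 11.1 and 11.1 in the controls, a difference of -7.63, and GstD1 fell by 1.20. The fatty acid elongase gene Elovl7 (-5.64), the cuticle gene Lcp65Af (-4.44), CG7408 (-4.16), CG1894 (-3.66) and CG9733 (-3.57) also fell. Of 17 glutathione S-transferase and P450 genes on chromosome 3, 6 fell and 2 rose. Cuticle and Osiris genes were mixed, with 6 of 36 rising, among them Osi6 by 3.29, TwdlT by 2.63 and Osi4 by 2.40, and 1 falling. In the EGFR list Cbl, a ubiquitin ligase gene that limits receptor signalling, rose by 1.93, but another of its probe sets was called in the other direction. In the Notch list the corepressor gene H fell by 0.75, with another probe set not called (mean -0.491), and the Bearded-family gene Ocho rose by 0.88, and the dosage compensation gene msl-3 rose by 1.81, with a second probe set also higher.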

How the data were processed

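Trizol-extracted total RNA, 6 ug a sample, was turned into biotin-labelled cRNA for the arrays, per the labels' protocols. The deposited table holds log2 values, a scale judged from their range. The submitters' processing notes list MAS5, GCRMA and affy without roles or versions. Background correction and normalization by the authors is not given in the sources used here. Of 18952 probe sets 13647 have 1 gene in the platform annotation and 183 are controls. A probe set was kept if at least 3 of the 6 sens arrays had it above their own 40th percentile. limma 3.58.1 in R 4.3.3 fitted the 2 group means, with an intensity trend, two-sided tests and Benjamini-Hochberg adjustment over the 11214 kept. This limma test gave every adjusted p and standard error (SE). All differences are sens mutant minus sens control in log2. Each gene is represented by its brightest probe set over these 6 arrays, and probe sets with several genes named none. Symbols, arms and gene order are from RefSeq for assembly Release 6 plus ISO1 MT.

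The 40 gene lists, of which 1254 of 1556 members had a probe set, and the members described were chosen with earlier results of these data known. Genes named are a fixed group of 10 photoreceptor genes, the 15 largest rises and 15 largest falls off chromosome 3 and 8 of each on it, among calls of at least 2-fold without overlap and with a higher mean of at least 6, and per list up to 5 called members off and 3 on chromosome 3 by smallest p. Any other gene was chosen with its value known. Lists got counts and medians and no test. The fit was tested on simulated data. The arrays in the fit, normalization, filter, variance model, array weights, replicate block, probe set summary, fold threshold and each replicate were varied in turn. Equal replicate numbers did not pair the samples, with correlations of deviations of -0.43, -0.069 and 0.074. No 2 arrays shared more than 1 identical value. The number of arrays limits the precision.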

Additional observations from a re-analysis of the deposited data

How the results depend on the processing

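The 1445 calls were 1940 in a fit of all 12 arrays, 2401 with array weights and 930 without the filter. Calls of at least 2-fold off chromosome 3, 38 higher and 85 lower as reported, were 19 higher after a second quantile normalization, 22 higher without the filter and 137 lower after median subtraction, which gave 156 lower calls on chromosome 3. With a 1.5-fold threshold they were 129 higher and 140 lower off chromosome 3 and 239 higher and 168 lower on it, and with a 4-fold threshold 5, 15, 30 and 29. With the replicate number as a block, which the check of pairing does not call for, 281 probe sets were called, with 6 higher and 40 lower 2-fold calls off chromosome 3 and 42 higher and 40 lower on it. Leaving out 1 replicate gave 428 to 1270 calls, with 428 without sens mutant replicate 1, 741 without sens mutant replicate 2, 575 without sens mutant replicate 3 and 641 without sens control replicate 2. Over these fits the 2-fold calls ranged over 12 to 60 higher and 54 to 95 lower off chromosome 3, with 16, 17 and 60 higher without sens control replicates 1, 2 and 3, 12, 22 and 18 without sens mutant replicates 1, 2 and 3, and 54 lower without sens mutant replicate 1, and over 61 to 141 higher and 49 to 94 lower on it, with 61 and 49 without sens mutant replicate 1, 71 higher without sens mutant replicate 3 and 60 lower without sens control replicate 2. The share of all calls that were higher was 64.8% as reported, 47.2% after quantile normalization and 28.3% after median subtraction. Among single genes, ato reversed to -0.074 with median subtraction, -0.055 with quantile normalization, and, leaving out 1 replicate, ranged over -0.125 to 0.477, with -0.125 and -0.031 without sens control replicates 1 and 2, and Tl to 0.327 as the mean of its probe sets; the cause was not tested. Of 22 named genes with several probe sets, 12 moved by more than the replicate spread when probe sets were averaged. Each group had 3 arrays, the genotypes may differ along chromosomes 2 and 3, and levels near the floor compress differences.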
